A study of Mus musculus with 6 samples.

Results

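Keratin-associated protein genes (Krtap genes) were followed in whole-brain RNA of neonatal mice given testosterone propionate (TP, an ester of testosterone) or the oil it was dissolved in. The members were all probe sets paired with a single gene symbol starting with Krtap: 43 of the 45101 probe sets on the array, standing for 38 of 18193 genes. The family was chosen with earlier results of the female comparison known, in which 4 of its genes were called, so its female differences are a description and support nothing by themselves.

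The 6 arrays were 2 of female TP, 2 of female vehicle, 1 of male TP and 1 of male vehicle mice. All were C57BL/6 mice. On postnatal day 2 they received 1 mg of TP in 20 µL of sesame oil, or 20 µL of the oil alone, by intraperitoneal injection, and whole brains were taken on postnatal day 6. Each array carried pooled RNA of 6 mice, so the spread between single animals was not measured. Of the female arrays, the second in either group is labelled a replica. Separate pools are not stated for it, so female p-values and SEs measure a spread between arrays that may be technical. Values are log2 expression units after RMA, the authors' normalization and summary of probes into probe sets, and the number of arrays limits their precision.

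Keratin-associated proteins form the matrix around the keratin filaments of the hair shaft. They are made late in differentiation by cells of the hair cortex and cuticle and are not known as products of brain cells. Their genes are short, lie in clusters and are grouped by the amino acids their products are rich in. Genes such as Krtap6-2, Krtap8-1 and Krtap19-5 encode glycine- and tyrosine-rich proteins. Krtap1-5, Krtap3-1, Krtap11-1 and Krtap13-1 encode high-sulfur proteins. The Krtap4, Krtap5, Krtap9 and Krtap17 genes encode cysteine-rich proteins of ultra-high sulfur content. The first hair coat of a mouse grows in the days after birth.

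The arrays carried the labelled tissue. All 6 neuronal markers (among them Snap25 and Rbfox3), all 5 astrocyte and radial glia markers and all 4 measured markers of the oligodendrocyte lineage lay above every olfactory receptor probe set on all 6 arrays. The mark was not met by brain markers alone. So did 6 of 7 genes of dermis and meninges, 7 of 16 of epidermis, 4 of 6 of skeletal muscle and 3 of 8 of bone. Among hair genes it was met by 3 of 12 shaft keratins, 2 of 17 other shaft and sheath genes and 4 of 10 transcription factors. Crym was among those other shaft and sheath genes, at 10.71 to 10.88. Which cells its signal came from was not tested. The library labelled male TP stood apart from its label: Xist, a non-coding RNA made from the inactive X chromosome of female cells, was at 10.45 there, against 5.29 on the male vehicle array and 12.61 to 12.83 on the female arrays. The Y-linked gene Eif2s3y was at 9.12 on the male TP array, against 9.16 on the male vehicle array. Results that rest on this library are given with that in view, and without it where they can be.

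Promoter stretches are shown for the 5 genes with the lowest female TP minus vehicle difference, all on chromosome 16, and for the 2 brightest members with a promoter entry, Krtap3-1 and Krtap5-1, which lie in other clusters. Each gives the 80 bases before the annotated start, 5′ to 3′ on the gene's strand, from RefSeq, build GRCm38.p6. Capitals mark TATAAA or TATATAA, forms of the TATA box that positions RNA polymerase at many genes of terminally differentiated cells. Counted from the annotated start, they begin at -63 in Krtap19-5, at -46 in Krtap15 and from -39 to -30 in the others. Whether a marked stretch works as a TATA box was not tested.
Krtap8-1 (chr16:89487953-89488032, minus strand): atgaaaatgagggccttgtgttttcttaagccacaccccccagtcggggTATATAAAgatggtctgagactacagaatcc
Krtap16-3 (chr16:88962874-88962953, minus strand): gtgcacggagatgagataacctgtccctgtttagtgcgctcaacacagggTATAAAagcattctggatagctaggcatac
Krtap15 (chr16:88828929-88829008, plus strand): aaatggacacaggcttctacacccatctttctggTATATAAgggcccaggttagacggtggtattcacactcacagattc
Krtap19-5 (chr16:88896450-88896529, minus strand): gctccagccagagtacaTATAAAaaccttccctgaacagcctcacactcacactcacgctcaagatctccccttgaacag
Krtap22-2 (chr16:89010760-89010839, minus strand): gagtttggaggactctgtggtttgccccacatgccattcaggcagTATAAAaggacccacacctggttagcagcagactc
Krtap3-1 (chr11:99566631-99566710, minus strand): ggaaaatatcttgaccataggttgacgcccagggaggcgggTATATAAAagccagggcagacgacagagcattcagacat
Krtap5-1 (chr7:142297135-142297214, minus strand): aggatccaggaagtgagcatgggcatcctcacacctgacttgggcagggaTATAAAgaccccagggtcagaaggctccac

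A promoter entry of 250 bases before to 50 after the start was found for 36 of the 38 genes. TATAAA or TATATAA, read on both strands, was in 35 of the 36, against 15.1% of all 32851 promoter entries of that length. The forms can overlap, as in the Krtap8-1 promoter, and TATAAA alone was in 29. AGAACA, the half-site shared by the androgen and glucocorticoid receptors, was in 8 of the 36, against 18.97% of all entries. A match is a run of letters and not a shown binding site. The lines above show the box both in Krtap8-1, whose female groups were apart, and in Krtap3-1, whose female groups overlapped.

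Most Krtap probe sets gave values in the range of genes with no known use in brain. On the female TP arrays the median Krtap gene stood at 3.38 and 3.35, against 3.87 and 3.81 on the female vehicle arrays, and at 3.53 on the male TP array, against 3.49 on the male vehicle array. The median of 43 olfactory receptor probe sets was 3.45 to 3.48 on the 4 female arrays, 3.59 on the male TP array and 3.55 on the male vehicle array. The Y-linked genes Eif2s3y, Kdm5d and Uty, which female mice lack, read on the female arrays between 2.44 and 3.09. Of the 38 Krtap genes, 36 had a mean below the 40th percentile of all genes, at 6.19 units, and 34 had a mean below that of the brightest olfactory receptor gene. Sizes of differences at such levels are compressed and uncertain, and probe sets differ in brightness for reasons other than RNA amount.

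The 4 genes above every olfactory receptor probe set on all 6 arrays were Krtap12-1, Krtap3-1, Krtap5-1 and Krtap10-4. Krtap12-1 was at 7.24 and 7.08 in female TP, against 7.33 and 7.12 in female vehicle, and at 7.42 in male TP, against 7.32 in male vehicle. Krtap3-1 was at 6.33 and 6.51 in female TP, against 6.51 and 6.56 in female vehicle, and at 6.58 in male TP, against 6.46 in male vehicle. Krtap10-4 was at 5.83 and 5.88 in female TP, against 6.00 and 5.82 in female vehicle, and at 6.21 in male TP, against 6.11 in male vehicle. In none of these 3 did the female groups separate. Krtap5-1 was at 6.02 and 6.05 in female TP, against 6.24 and 6.14 in female vehicle, and at 6.41 in male TP, against 5.98 in male vehicle. Its female groups were apart with TP lower (difference -0.16), and its male difference, 0.43, was the highest of the family. The second Krtap5-1 probe set did not show that male difference, at 5.05 in male TP, against 5.10 in male vehicle. Krtap8-1 joined the genes above the olfactory receptors on the female vehicle arrays and on no other.

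Female TP arrays had lower means than female vehicle arrays for 36 of the 38 genes, while 59.2% of all genes were lower. The median difference was -0.30 log2 units over the Krtap genes and -0.02 over all genes. Both TP arrays lay below both vehicle arrays for 24 Krtap genes, against 24.7% of all genes, and above them for 0, against 13.4% of all genes. For 8 Krtap genes the groups were apart and the TP mean was at least 1.5-fold lower, a rule that 0.0715% of all genes met, and 0 were at least 1.5-fold higher, beside 0.033% of all genes. In a bulk sample, fewer cells of a type and less RNA per cell cannot be told apart.

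Krtap8-1 had the lowest difference of the family. It was at 3.41 and 3.96 in female TP, against 5.49 and 5.78 in female vehicle (difference -1.95, SE 0.19), and at 4.05 in male TP, against 3.83 in male vehicle. The female vehicle arrays were the high ones, and both male arrays lay near female TP. Krtap16-3 was at 2.45 and 2.47 in female TP, against 4.14 and 3.83 in female vehicle (difference -1.52, SE 0.11), and at 2.49 in male TP, against 2.65 in male vehicle. Its second probe set had the same order, at 2.52 and 2.50 in female TP, against 3.79 and 3.10 in female vehicle (difference -0.94, SE 0.21).

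Krtap15, which lies beside Krtap14 in the chromosome 16 cluster, was at 2.98 and 2.99 in female TP, against 4.33 and 4.11 in female vehicle (difference -1.23, SE 0.09), and at 3.19 in male TP, against 3.14 in male vehicle. Krtap19-5 was at 2.66 on both female TP arrays, against 3.85 and 3.88 in female vehicle (difference -1.21, SE 0.07), and at 2.61 in male TP, against 3.28 in male vehicle. Its male vehicle value lay between the female groups and its male TP value beside female TP. Krtap22-2 was at 3.31 and 3.36 in female TP, against 4.47 and 4.34 in female vehicle (difference -1.07, SE 0.08), and at 3.19 in male TP, against 3.49 in male vehicle.

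The next genes had smaller differences and the same arrays high. Krtap19-9b was at 4.02 and 3.90 in female TP, against 4.89 and 4.76 in female vehicle (difference -0.87, SE 0.08), and at 4.20 in male TP, against 4.22 in male vehicle. Krtap19-3 was at 2.81 and 2.88 in female TP, against 3.87 and 3.26 in female vehicle (difference -0.72, SE 0.18), and at 2.98 in male TP, against 3.14 in male vehicle. The gap between its vehicle arrays, 0.60, was the widest of any Krtap gene. Krtap6-5 was at 2.99 and 3.08 in female TP, against 3.90 and 3.54 in female vehicle (difference -0.68, SE 0.13), and at 3.08 in male TP, against 2.82 in male vehicle. In all 8 genes no TP array reached a vehicle array among the females.

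**Figure D1:**
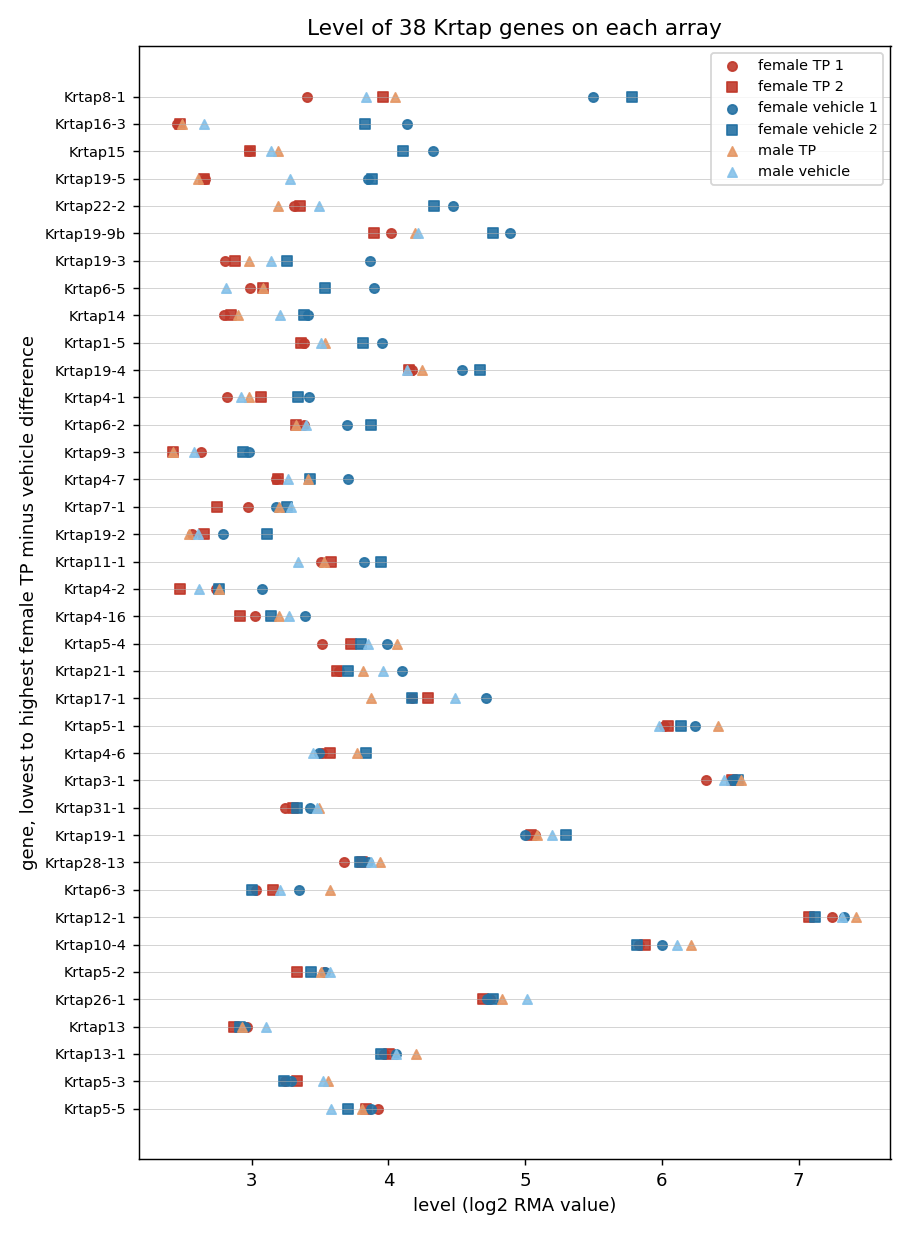
Level of the 38 Krtap genes (rows, ordered by the female TP minus vehicle difference) in log2 RMA units on each of the 6 arrays, 1 point per array, with red for female TP, blue for female vehicle and triangles for the single male arrays. In the upper rows the female vehicle points lie to the right of the other 4 arrays, as for Krtap8-1 at 5.49 and 5.78, while the bright Krtap12-1 and Krtap3-1 show no such split.

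By limma with Benjamini-Hochberg adjustment over 18193 genes, 4 Krtap genes fell in TP females (Krtap16-3, Krtap15, Krtap19-5 and Krtap22-2) and 0 rose, beside 0.022% of all genes lower and 0.0055% higher. These are all of the genes called lower, and they are the calls for which the family was chosen. Leaving out any 1 of the 4 female arrays leaves a group with a single array. Whether the calls hold without that array could therefore not be tested. The differences of these 4 genes then stayed between -1.68 and -1.003.

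The female values were also set out by chromosome. On chromosome 16, which held 20 of the measured genes, the median female difference was -0.44, all 20 were lower in TP and the groups were apart with TP lower for 15, against 24.7% of all genes, and all 8 genes at least 1.5-fold lower were there. On chromosome 11, with 10 genes, the median was -0.30, the groups were apart for 7, against the same 24.7%, and 0 reached 1.5-fold. The lowest of those was Krtap1-5, at 3.38 and 3.36 in female TP, against 3.95 and 3.82 in female vehicle. On chromosome 7, which held the 5 measured Krtap5 genes, the median was -0.05 and the groups were apart with TP lower for 2, a share near the 24.7% of all genes for so few genes. Whether the clusters differ was not tested, since every one of these values comes from the contrast by which the family was noticed.

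Within the chromosome 16 cluster neighbours could differ. Krtap26-1, Krtap13-1 and Krtap13, high-sulfur genes at one end of the order, had differences of -0.03, -0.01 and -0.02. Krtap14, the gene after them, was at 2.80 and 2.85 in female TP, against 3.41 and 3.38 in female vehicle, and the 8 genes with the lowest differences lay from Krtap15 to Krtap8-1. Krtap6-3, inside that stretch, was at 3.03 and 3.15 in female TP, against 3.34 and 3.003 in female vehicle, so its groups overlapped. Its second probe set overlapped as well.

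**Figure D2:**
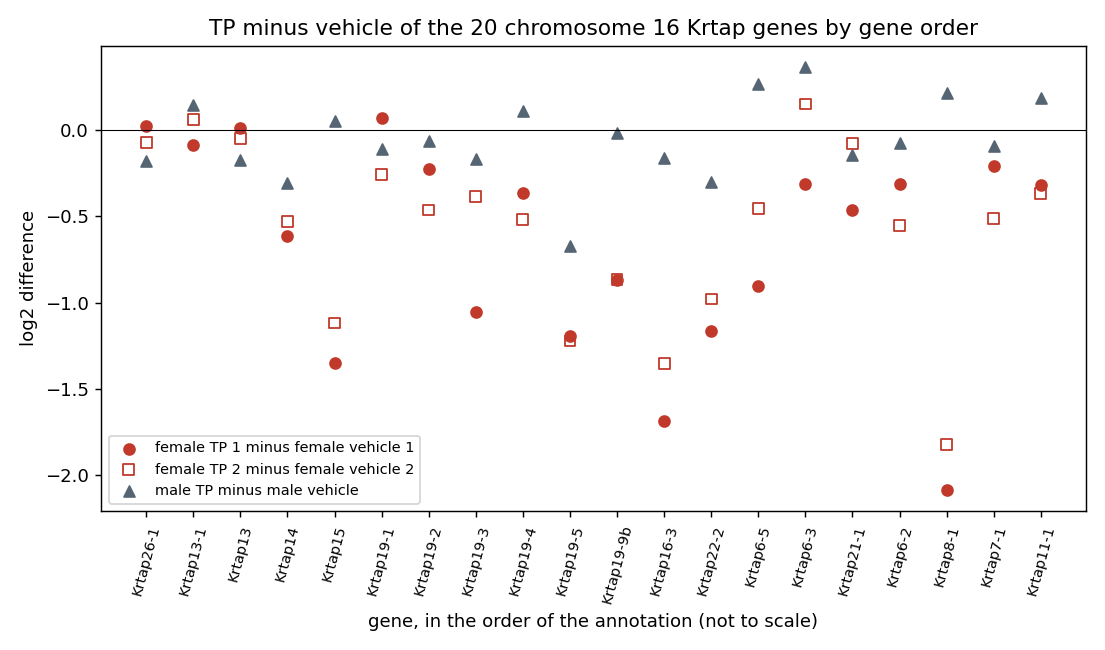
TP minus vehicle in log2 units for the 20 measured Krtap genes of chromosome 16, set in annotation order without scale, with filled circles for the original female arrays, open squares for the replica female arrays and triangles for the single male arrays. Both female pairs dip together at Krtap15, Krtap19-5, Krtap16-3, Krtap22-2 and Krtap8-1, and the male value at Krtap19-5 is the lowest of the male points.

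By subfamily number, counts of groups apart with TP lower stand beside 24.7% of all genes. The 6 Krtap19 genes had a median female difference of -0.58, with the groups apart in 5, and the 3 Krtap6 genes one of -0.43, with the groups apart in 2. The exception among the Krtap19 genes was Krtap19-1, at 5.07 and 5.04 in female TP, against 4.9999 and 5.30 in female vehicle. Its other probe set, read at 2.73 on both female TP arrays, against 3.04 and 2.96 in female vehicle, did separate. The 5 Krtap4 genes had a median of -0.31 with the groups apart in 4, and the 5 Krtap5 genes one of -0.05. Across the 38 genes, TP minus vehicle of the original female arrays and of the replica arrays had a Pearson r of 0.87, against 0.19 across all 18193 genes. Genes of a cluster are not independent, and the replica arrays may hold the same RNA. Both pairs also hold the values by which the family was noticed, so a high r largely followed from that choice and supports nothing.

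The highest female differences in the family were small. Krtap5-5 was at 3.93 and 3.84 in female TP, against 3.87 and 3.71 in female vehicle (difference 0.09, SE 0.09). Krtap5-3 was at 3.25 and 3.34 in female TP, against 3.29 and 3.24 in female vehicle (difference 0.03, SE 0.08). The groups overlapped in both. Krtap13-1 was at 3.97 and 4.01 in female TP, against 4.06 and 3.95 in female vehicle, and Krtap13 was at 2.97 and 2.87 in female TP, against 2.95 and 2.92 in female vehicle. Probe sets of 1 gene could disagree. The second Krtap5-1 probe set was at 4.91 and 5.14 in female TP, against 4.79 and 4.74 in female vehicle (difference 0.26), so its groups were apart the other way from those of the first, which had a difference of -0.16. The second Krtap12-1 probe set was at 4.17 and 4.14 in female TP, against 4.26 and 3.87 in female vehicle, and at 3.998 in male TP, against 4.61 in male vehicle. Members of a subfamily have similar sequences, and probes shared among them leave the single gene uncertain.

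The male arrays, which the choice of the family did not use, gave other values. Of the 38 genes 17 were lower in male TP than in male vehicle, with a median difference of 0.03, while 59.6% of all genes were lower and their median was -0.03. With 1 array a group there was no test. All these values rest on the library labelled male TP, whose Xist level of 10.45 lies between that of the male vehicle array and those of the female arrays. RNA of both sexes in that pool was not tested as a part of these differences. Krtap19-5 (-0.67) and Krtap17-1 (-0.62) were at least 1.5-fold lower in male TP, beside 0.286% of all genes, and 0 were at least 1.5-fold higher, beside 0.148%. Krtap17-1, an ultra-high sulfur gene, was at 3.87 in male TP, against 4.49 in male vehicle, and at 4.18 and 4.29 in female TP, against 4.72 and 4.17 in female vehicle, where the groups overlapped. Across the 38 genes the female and male differences had a Pearson r of 0.23.

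**Figure D3:**
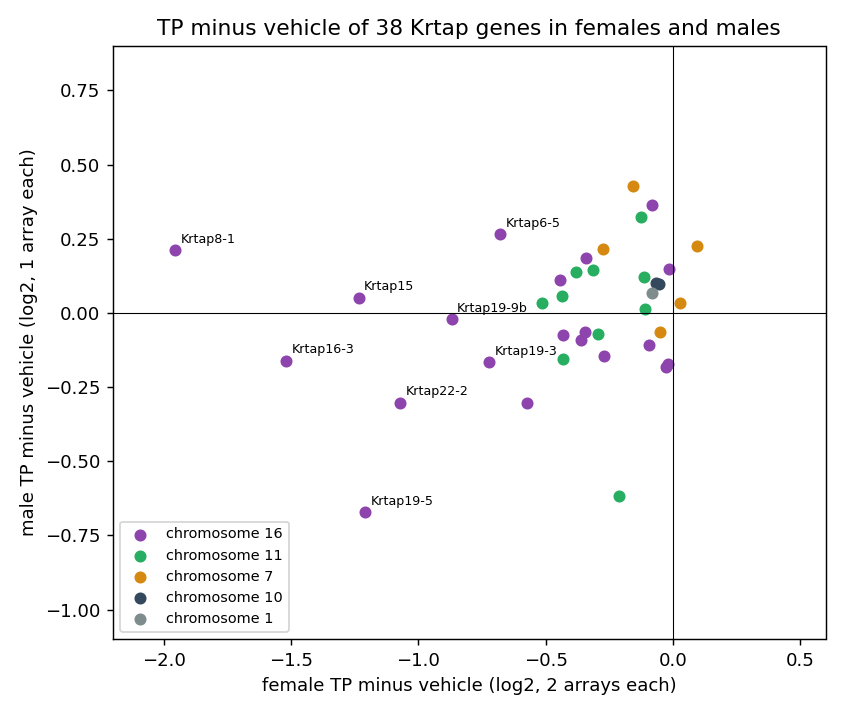
Female TP minus vehicle (horizontal axis, log2, 2 arrays each) against male TP minus vehicle (vertical axis, log2, 1 array each) for the 38 Krtap genes, coloured by chromosome. Genes with female differences from -1.95 to -0.68 have male values on both sides of 0, from -0.67 for Krtap19-5 to 0.27 for Krtap6-5.

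The difference between the TP effects of the sexes was fitted over all 6 arrays, with the single male arrays assumed to vary like the female ones. It holds the female contrast and is no independent evidence. By limma 0 of the 38 genes passed (smallest adjusted p = 0.569, for Krtap15), beside 0.011% of all genes, and 14 had an unadjusted p under 0.05, beside 4.42% of all genes. With an intensity trend in the variance model 1 gene, Krtap8-1, passed.

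Both female vehicle arrays lay above all 4 other arrays for 18 Krtap genes, beside 11.4% of all genes, and below them for 0, beside 3.82%. Without the library labelled male TP, an alternative chosen after seeing the data, the count was 19, beside 13% of all genes. Of the 13 genes of the array, 0.0715%, with that order and a female vehicle mean at least 1.5-fold above the mean of the other 4, 8 were the Krtap genes described above. Another was Gm10229, which lies among the Krtap genes of chromosome 16 in the annotation and was at 3.21 and 3.32 in female TP, against 4.09 and 4.35 in female vehicle. The remaining 4 were Prr9, Krt25, Arhgef33 and Smad6. These names were taken after the values were seen. The order holds the female contrast by which the family was noticed, so its Krtap counts are a description and no independent evidence.

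Male and female arrays were compared in an additive model of sex and treatment. The choice of the family did not use this contrast, but the fit shares the 4 female arrays with that choice. It has no term for unlike TP effects in the sexes, so the female TP differences widen its SEs. For Krtap8-1 the SE was 0.43 here, against 0.19 in the female fit. The counts are therefore not free of the choice. By limma 0 of the 38 Krtap genes differed, beside 0.0165% of all genes, and 9 had an unadjusted p under 0.05, beside 14% of all genes. The smallest adjusted p was 0.261, for Krtap5-3, which averaged 3.54 over the male arrays and 3.28 over the female arrays (male minus female 0.26, SE 0.06). Krtap22-2 averaged 3.34 over the male arrays and 3.87 over the female arrays (male minus female -0.52, SE 0.16, limma adjusted p = 0.270). The male side holds the library labelled male TP, whose Xist level stood apart from its label. Without that library the family's median was -0.21, from 1 male array. With all 6 arrays it was -0.05, against -0.02 over all genes.

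That median joined unlike values. Male vehicle was lower than the female vehicle mean for 23 of the 38 genes (median -0.21), beside 10314 of all 18193 genes (median -0.02). Male TP was lower than the female TP mean for 8 (median 0.16), beside 10498 of all genes (median -0.03). That comparison rests on the library whose Xist level stood apart from its label. These contrasts share arrays with those above and are given as values only. Over both sexes with sex as a term, TP minus vehicle had a median of -0.21, and 32 genes were negative, beside 11298 of all genes. By limma 0 passed (smallest adjusted p = 0.291), beside 0% of all genes, while 16 had an unadjusted p under 0.05 (2229 of all genes). With the intensity trend 1 passed, Krtap19-5, and without either male array, which leaves the female difference alone, 4 did.

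Other genes of hair and skin were read beside the family from lists chosen with earlier results of these data known. All 12 measured hair shaft keratin genes were lower in female TP than in female vehicle (median -0.20), with the groups apart in 7, against 24.7% of all genes, and 0 past the limma threshold. Krt33a, a keratin of the hair cortex, was at 4.08 and 3.86 in female TP, against 4.60 and 4.41 in female vehicle. The list's summed linear signal was 386 and 394 in female TP, against 478 and 428 in female vehicle, and 424 in male TP, against 450 in male vehicle. The male vehicle sum lay inside the range of the female vehicle arrays. The same sum over the 38 Krtap genes was 737 and 740 in female TP, against 938 and 886 in female vehicle, and 845 in male TP, against 807 in male vehicle. Over 38 olfactory receptor genes it was 486 and 488 in female TP, against 512 and 495 in female vehicle. There it was 551 in male TP, against 536 in male vehicle. The brightest members weigh most in such a sum.

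Of 17 other genes of the hair shaft and root sheath 15 were lower in female TP (median -0.23), with the groups apart in 11, against 24.7% of all genes, and 0 past the threshold. Prr9, a proline-rich protein gene, was at 3.54 and 3.46 in female TP, against 4.58 and 4.25 in female vehicle, and at 3.28 in male TP, against 3.58 in male vehicle. Krt25, a keratin of the inner root sheath, was at 4.38 and 4.39 in female TP, against 5.17 and 4.87 in female vehicle, and at 4.41 in male TP, against 4.43 in male vehicle. Krt27, another of that sheath, had a difference of -0.55, and Mt4, a metallothionein of stratified epithelium, one of -0.39. These genes had the same arrays high as the Krtap genes. Crym, a crystallin-related gene, gave 80.03% to 85.02% of the list's summed linear signal, so the sum was also taken without it after its values were seen. Over the other 16 genes it was 331 and 343 in female TP, against 434 and 370 in female vehicle, and 337 in male TP, against 364 in male vehicle. With Crym it was 2212 and 2160 in female TP, against 2173 and 2255 in female vehicle.

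Regulators of the follicle and genes of the epidermis had medians nearer 0. Of 10 hair follicle transcription factor genes 7 were lower in female TP (median -0.07), with the groups apart in 3, against 24.7% of all genes. The 3 were Foxq1, Msx2 (difference -0.24) and Ovol1 (-0.17). Foxq1 was at 5.82 and 5.65 in female TP, against 6.22 and 5.99 in female vehicle. In Hoxc13, which activates hair keratin genes, the groups overlapped, at 3.68 on both female TP arrays, against 3.90 and 3.65 in female vehicle. Of 16 epidermis genes 14 were lower (median -0.08), against 59.2% of all genes, with the groups apart in 8, against 24.7%. The largest epidermis difference was that of Ivl, at 4.51 and 4.88 in female TP, against 5.01 and 5.02 in female vehicle. Flg differed by -0.20. Krt1, of the upper epidermis, was at 7.92 and 7.85 in female TP, against 8.10 and 8.02 in female vehicle. Krt14, of the basal layer, differed by -0.17. The summed signals of the 16 epidermis genes were 1949 and 1990 in female TP, against 2016 and 2171 in female vehicle. In each of these 4 lists 0 genes passed the threshold, and no marker was read at 0, since array values have no true zero. The part of hair follicle or skin RNA in the Krtap differences was not tested.

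**Figure D4:**
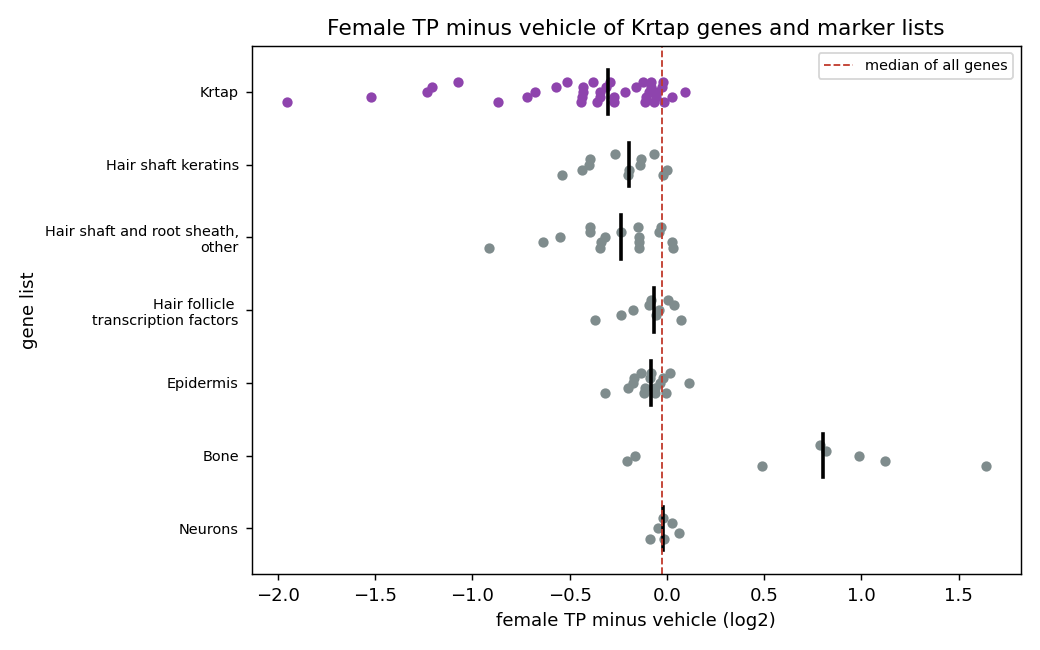
Female TP minus vehicle (log2, 1 point per gene) for the 38 Krtap genes and for the marker lists, with a black bar at each list's median and a dashed line at the median of all genes, -0.02. The Krtap median is -0.30, hair shaft keratins stand at -0.20, other hair genes at -0.23, epidermis at -0.08, neurons at -0.02 and bone at 0.80.

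Lists for other tissues around the brain gave other values. Of 8 bone genes 6 were higher in female TP with the groups apart (median 0.80), against 13.4% of all genes, and 1 of them, Ibsp, past the threshold, beside 0.0055% of all genes. Ibsp, a bone matrix protein gene, was at 6.19 and 6.04 in female TP, against 4.54 and 4.41 in female vehicle. In males it went the other way, at 3.49 in male TP, against 4.61 in male vehicle. Of the 8 bone genes 7 were lower in male TP (median -0.26), beside 59.6% of all genes. These male values rest on the library whose Xist level stood apart from its label. The 7 genes of dermis and meninges had a median of 0.08, 6 melanocyte genes one of -0.00 and 6 skeletal muscle genes one of 0.06. The wider keratin family, 48 genes with symbols of Krt and a number, had a median of -0.15, with 42 lower in TP and the groups apart in 21 of them, against 24.7% of all genes.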

How the data were processed

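The deposited values were log2 expression values, made by the authors with RMA per the submitters' processing notes; its version, the scanner files and further steps are not given in the sources used here. No array was dropped or imputed. Probe sets were named through the platform's annotation, in which 34945 had 1 symbol, 932 several and 9160 none, with 64 array controls, and chromosome and gene order came from RefSeq, GRCm38.p6. Where a gene had several probe sets, the one brightest on average stood for it. All 38 Krtap gene identifiers were in the RefSeq table.

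Differences were fitted on the log2 values by limma's lmFit and eBayes (version 3.58.1, R 4.3.3), two-sided. Benjamini-Hochberg adjustment ran over 18193 genes, and calls needed an adjusted p below 0.05. The fits were tested on simulated data. Promoters were read with Python 3.11.15. Members, lists and the rule for named genes (lowest, highest and brightest members, the largest male differences, members with several probe sets, up to 4 genes a list) were chosen with earlier results of these data known. No protein sequences were used, so classes are background. Alternatives covered probe sets, dim genes, normalization, variance model, the replica as a block and left-out arrays.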

Additional observations from a re-analysis of the deposited data

How the results depend on the processing

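The count of 4 Krtap genes past the limma threshold in females was 1 (Krtap19-5) with every probe set tested one by one. It was 3 with probe sets averaged per gene, which ended the call of Krtap16-3 (difference -1.23, limma adjusted p = 0.319). It was 0 with genes below the 40th percentile left out. With the intensity trend it was 6, which added Krtap8-1 and Krtap19-9b. Without 1 female array a group has a single array, so whether the calls hold could not be tested. The count of 8 genes apart and 1.5-fold lower was 0 without dim genes, which removes 36 of the 38 members, and 6 to 9 without 1 array. Without dim genes the family's medians were -0.090 for the female difference, 0.11 for male minus female, -0.023 for TP over both sexes and 0.11 for the male difference. Quantile normalization again gave -0.10 for male minus female. That median was -0.21 with vehicle arrays alone, 0.16 with TP arrays alone, and -0.21 to 0.16 without 1 array. Taking vehicle or TP arrays alone changes both the male array and the female group it is set against, and the family's median level was 3.53 in male TP and 3.49 in male vehicle, but 3.38 and 3.35 in female TP, against 3.87 and 3.81 in female vehicle. Without 1 array the female median was -0.36 to -0.24 and the median over both sexes -0.30 to -0.14. The count of genes over both sexes was 0 to 4 without 1 array and 1 with the intensity trend, which also called 1 gene, Krtap8-1, for the difference between the sexes' effects. In the sex comparison 0 Krtap genes passed in any of 16 settings. With the replica as a replicate block the female count was again 4 of 38, with Krtap22-2 at adjusted p = 0.0509 and Krtap8-1 at 0.0091 by limma, and no other count moved by over 1.5 times. Deviations of same-numbered female arrays had a correlation of 0.11 across genes, and the numbers were not taken as pairs. Of 192 values of single genes under alternatives, 15 changed sign, all of them for genes that had not passed. The 4 genes that had passed kept their sign, which differences that far from 0 could hardly lose. No detection call was at hand, and signal near that of olfactory receptor probe sets limits the size of every difference given for the dim members.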

Other observations

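A further 6 probe sets carry several symbols of which at least 1 is a Krtap symbol, and they were left out of the members because no single gene can be named from them. Their female TP minus vehicle differences lay between -1.19 and -0.05 log2 units, and in 4 of them both TP arrays were below both vehicle arrays.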
